A study of Mus musculus with 12 samples.

Results

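Adipose stem and progenitor cells are the stromal cells of fat tissue that renew themselves and give rise to new adipocytes. In mouse gonadal white adipose tissue (GWAT) they share the receptor PDGFRα, the sialomucin CD34 and the surface protein SCA-1, which is encoded by Ly6a. Cells that express Dpp4, Pi16 and Cd55 lie in the connective tissue around the lobes and are thought to be the earliest state, whereas cells that express Icam1 or Dlk1 are closer to becoming adipocytes, and Fap marks stromal fibroblasts, more so when they remodel matrix.

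The 10 genes described here, Pdgfra, Cd34, Ly6a, Dpp4, Pi16, Cd55, Icam1, Dlk1, Fap and Hmga2, were taken by their gene symbol from a table of 55281 genes, and each symbol matched a single row. Hmga2, an architectural chromatin protein of embryonic and mesenchymal cells, stands somewhat apart from the rest because it is not a surface marker. RNA sequencing was performed on GWAT of male mice 22 to 24 weeks old, with 3 libraries in each of 4 groups and tissue of 3 mice pooled in every library. WT mice were Hoip fl/fl AdipoQ.Cre- and HoipA-KO mice were Hoip fl/fl AdipoQ.Cre+, so both genotypes carried floxed alleles of Hoip, the catalytic subunit of the linear ubiquitin ligase complex, and only HoipA-KO carried the adiponectin promoter Cre that deletes Hoip in mature adipocytes. From 6 weeks of age the mice received a control diet with 14% fat (CD) or a high-fat diet with 60% fat (HFD) for 16 weeks. The deletion is thus directed at adipocytes and not at the progenitors whose genes are described.

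The libraries held 30513500 to 60540260 estimated counts, at which 3 counts correspond to 0.0496 to 0.0983 CPM, the count of a gene scaled to the size of its library. All 10 genes passed the filter on low counts. The deleted gene, Rnf31, is transcribed by many cell types, and its level in whole tissue was 12.01 to 20.9 CPM in WT CD, 17.7 to 21.8 CPM in HoipA-KO CD, 18.2 to 20.0 CPM in WT HFD and 18.8 to 22.5 CPM in HoipA-KO HFD, so the counts do not show the deletion. WT CD replicate 3 stands apart from the other libraries and is left out of the study's own comparisons. The tests below therefore use 11 libraries, and values over all 12 are given beside them where they change a call, while levels are printed for all 12 libraries. WT CD replicate 2 held RNA of epididymal epithelium, an organ that touches gonadal fat, at a summed 14804 CPM over 10 marker genes, HoipA-KO HFD replicate 1 held 1311 CPM of it, and the other 10 libraries held 0.133 to 178 CPM. WT CD replicate 2 and HoipA-KO HFD replicate 1 are called below the libraries with epididymal RNA, although other libraries were not free of it. The summed adipocyte markers ranged from 14516 to 51549.7 CPM among the 3 WT CD libraries.

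On CD, HoipA-KO GWAT had higher levels of Pdgfra, Fap, Hmga2 and Icam1 than WT GWAT, and none of the 10 genes was called lower (edgeR's quasi-likelihood test, Benjamini-Hochberg adjusted p under 0.05 over all genes tested). These 4 of 10 stand beside 37.7% of all genes called in either direction, 18.9% called higher and 18.8% called lower. The same 4 were called over 12 libraries, beside 34.7% of all genes, and when any single library was left out. On HFD, Icam1 was higher and Cd55 lower in HoipA-KO than in WT, 2 of 10 beside 11.8% of all genes, of which 4.2% of all genes were higher and 7.62% lower. Over 12 libraries Cd55 was called and Icam1 was not, 1 of 10 beside 2.78% of all genes. In WT, HFD raised Pdgfra, Pi16, Cd55, Fap, Hmga2 and Icam1, 6 of 10 beside 14.8% of all genes, or 9.35% called higher and 5.47% lower. The same 6 were called over 12 libraries, beside 15% of all genes. None of the 10 was called when the 2 WT groups were fitted without the HoipA-KO libraries (adjusted p from 0.0861 to 0.153 for the 6, edgeR). Here and below, leaving WT CD replicate 1 or replicate 2 out of the 11 libraries left WT CD with a single library. Without replicate 2, Pdgfra, Pi16, Cd55 and Hmga2 lost the call, at log2 fold changes of 1.20, 1.76, 0.65 and 8.66. In HoipA-KO, edgeR called none of the 10 and none of all genes tested between HFD and CD, 0 beside a background of 0%. Of the 18427 genes tested, 415 had an unadjusted p under 0.05 by edgeR, Pi16 and Ly6a among them, and DESeq2 called 7 genes. The genotype difference was smaller on HFD than on CD for Hmga2 and Icam1, 2 of 10 by the interaction of genotype and diet beside 3.91% of all genes, or 3.58% in that direction and 0.331% in the other. Over 12 libraries no interaction of the 10 was called, beside 2.78% of all genes, and most fits without a single library also lost both calls.

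The median log2 fold change of the 10 genes between HoipA-KO and WT was 0.51 on CD and 0.22 on HFD, beside medians of -0.06 and 0.06 over all genes tested. Between HFD and CD it was 0.99 in WT and 0.26 in HoipA-KO, beside 0.00 and -0.01. Over 12 libraries the median of all genes in HoipA-KO against WT on CD lay at -0.21 and that of the 10 genes at 0.71. The comparison of genotypes on CD and the comparison of diets in WT share the WT CD libraries as controls. In bulk tissue, fewer cells of a type and less RNA per cell cannot be told apart, and a level in CPM also moves when the RNA of other cells in the tissue changes.

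**Figure D1:**
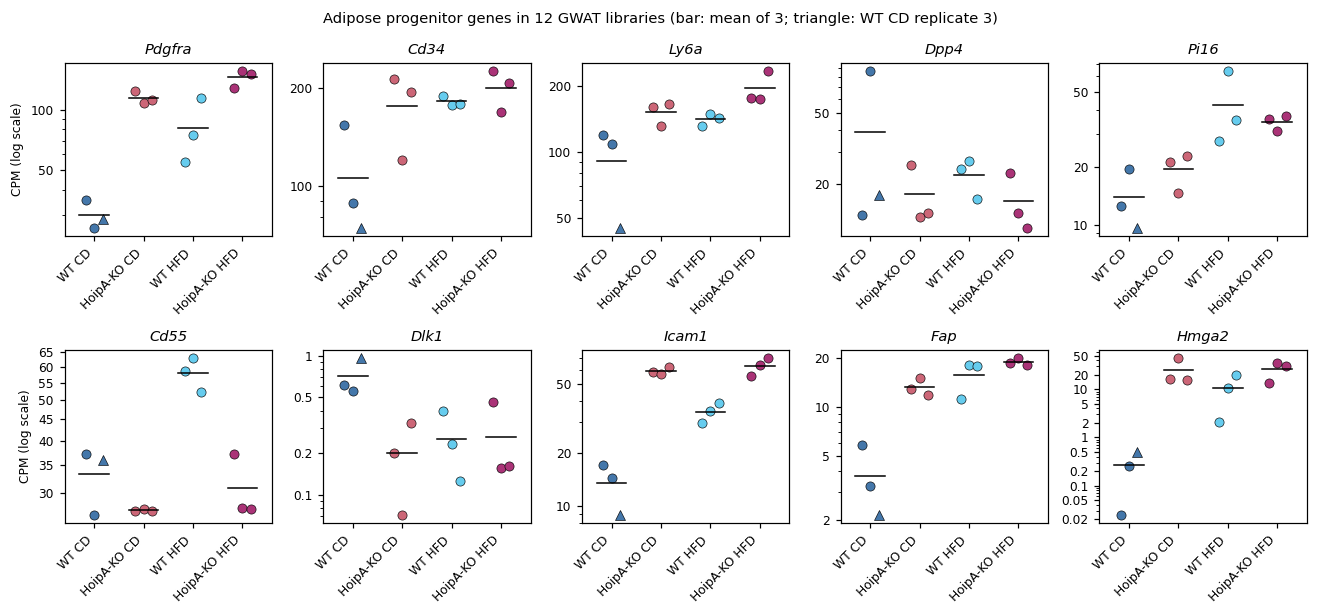
Level of each gene in every library, as CPM on a log axis that differs between panels, by group. Points are pools of 3 mice, bars are means of 3 libraries and the triangle is WT CD replicate 3. All HoipA-KO points lie above all WT CD points for Pdgfra, Icam1, Fap and Hmga2, Cd55 is highest in WT HFD, and the highest Dpp4 point is WT CD replicate 2.

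The genes differed widely in abundance. Divided by the exonic length of each gene in GENCODE M21, group means ran from 75.4 to 161 CPM per kb for Ly6a and from 14.5 to 27.6 CPM per kb for Cd34, the most abundant of the 10. Pdgfra had 3.00 to 14.4 CPM per kb, Icam1 3.11 to 14.5 CPM per kb and Fap 0.661 to 3.34 CPM per kb. Hmga2 spanned 0.0388 to 3.90 CPM per kb, the widest range of group means, and Dlk1 was lowest in 3 of the groups, down to 0.0353 CPM per kb in HoipA-KO CD.

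Pdgfra (ENSMUSG00000029231), the receptor tyrosine kinase that marks nearly all adipose progenitors, lies at chr5:75152292-75198215 on the plus strand of GRCm38. Its levels were 35.7, 25.8 and 28.6 CPM in WT CD and 124, 108 and 112 CPM in HoipA-KO CD. On HFD they were 55.3, 75.3 and 114 CPM in WT and 128, 156 and 150.0 CPM in HoipA-KO. Neither pair of genotypes overlapped, but WT HFD replicate 3 reached the range of HoipA-KO CD. On CD the difference was 3.82-fold (1.93 ± 0.29 SE on the log2 scale, adjusted p = 0.00117, edgeR). On HFD it was 0.85 ± 0.24, which missed the threshold (adjusted p = 0.0523, edgeR), as it did in 17 of 26 alternatives. It passed under others, among them all protein-coding genes alone (adjusted p = 0.0434, edgeR) and the fit without WT HFD replicate 3 (1.18, adjusted p = 0.0123, edgeR). Without WT HFD replicate 1 it was 0.63, and the highest adjusted p with a single library left out was 0.160 (edgeR). HFD raised Pdgfra in WT by 1.41 ± 0.29 on the log2 scale (adjusted p = 0.0135, edgeR), a call lost without WT CD replicate 2 (1.20, adjusted p = 0.0833, edgeR). Group means rose from WT CD through WT HFD and HoipA-KO CD to HoipA-KO HFD, and WT HFD and HoipA-KO CD overlapped.

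Cd34 (ENSMUSG00000016494), whose product sits on progenitors and on endothelial cells, lies at chr1:194938819-194961279 on the plus strand. It had 155, 88.8 and 74.1 CPM in WT CD, 213, 119.9 and 194 CPM in HoipA-KO CD, 189.9, 178 and 179 CPM in WT HFD and 226, 169 and 208 CPM in HoipA-KO HFD. WT CD was lowest on average, and the 3 other groups overlapped one another. No difference passed the test: HoipA-KO against WT was 0.56 ± 0.28 on CD and 0.15 ± 0.24 on HFD (adjusted p = 0.135 and 0.687, edgeR). Without WT CD replicate 1, which had the highest Cd34 of its group, the CD difference was 1.00 and the diet difference in WT was 1.05. That fit left WT CD with replicate 2 alone, the library with the most epididymal RNA. With single libraries left out, the CD difference ran from 0.22 to 1.09 and the diet difference in WT from 0.25 to 1.14.

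Ly6a (ENSMUSG00000075602), at chr15:74994877-74998031 on the minus strand, encodes SCA-1, a glycolipid-anchored protein of stem and progenitor cells that endothelial and immune cells carry as well. Its estimated counts are not whole numbers in most libraries, since reads can be shared with related Ly6 genes, and its level is uncertain to that extent. It had 119, 109 and 44.7 CPM in WT CD, 159.7, 131 and 166 CPM in HoipA-KO CD, 132, 149 and 142 CPM in WT HFD and 176, 173 and 234 CPM in HoipA-KO HFD. On each diet every HoipA-KO library lay above every WT library. The differences of 0.45 ± 0.17 on CD and 0.48 ± 0.15 on HFD nevertheless missed the threshold (adjusted p = 0.0640 and 0.0675, edgeR), and DESeq2 called both (adjusted p = 0.0365 and 0.00735).

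Dpp4 (ENSMUSG00000035000), a dipeptidyl peptidase on the surface of interstitial progenitors and also of several epithelia, lies at chr2:62330073-62412231 on the minus strand. It had 13.4, 86.3 and 17.2 CPM in WT CD, 25.6, 13.0 and 13.7 CPM in HoipA-KO CD, 24.1, 26.7 and 16.5 CPM in WT HFD and 23.1, 13.7 and 11.3 CPM in HoipA-KO HFD. The 86.3 CPM belong to WT CD replicate 2, the library with 12431 CPM of the epididymal gene Crisp1, and the 11 other libraries overlapped across all groups between 11.3 and 26.7 CPM. HoipA-KO against WT on CD was -1.49 ± 0.63 (adjusted p = 0.0873, edgeR; DESeq2 called it, adjusted p = 0.0371), and HFD against CD in WT was -1.16 ± 0.63 (adjusted p = 0.238, edgeR). Without that library both turned positive, at 0.42 and 0.76, whereas without WT CD replicate 1 they were -2.29 and -1.93. Each of these fits left WT CD with a single library. The part of epididymal RNA in the Dpp4 level was not tested.

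Pi16 (ENSMUSG00000024011), a secreted peptidase inhibitor of fibroblasts in connective tissue, lies at chr17:29317680-29330593 on the plus strand. It had 12.6, 19.6 and 9.60 CPM in WT CD, 21.4, 14.6 and 22.8 CPM in HoipA-KO CD, 27.5, 64.1 and 35.2 CPM in WT HFD and 36.0, 30.9 and 37.1 CPM in HoipA-KO HFD. Its libraries separated by diet in both genotypes and overlapped between genotypes on both diets. HFD raised it in WT by 1.40 ± 0.36 (adjusted p = 0.0314, edgeR), but the call was lost in 8 of 13 fits with a single library left out, WT CD replicate 1 (1.13, adjusted p = 0.0915, edgeR) and WT HFD replicate 2 (0.97, adjusted p = 0.0711, edgeR) among them. In HoipA-KO the difference was 0.81 ± 0.31 (unadjusted p = 0.0245, edgeR), and it did not pass the adjustment. The genotype differences were 0.31 ± 0.34 on CD and -0.27 ± 0.30 on HFD.

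Cd55 (ENSMUSG00000026399), which encodes a membrane protein that shields cells from complement, lies at chr1:130439027-130462744 on the minus strand. It had 37.2, 26.5 and 35.9 CPM in WT CD and 27.2, 27.4 and 27.2 CPM in HoipA-KO CD. It had 58.7, 63.0 and 52.3 CPM in WT HFD but 37.2, 27.7 and 27.5 CPM in HoipA-KO HFD. WT HFD thus stood above all other libraries, the WT CD libraries overlapped both HoipA-KO groups, and HoipA-KO HFD lay just above HoipA-KO CD. HFD raised Cd55 in WT by 0.87 ± 0.18 on the log2 scale (adjusted p = 0.0150, edgeR), and on HFD HoipA-KO lay 0.90 ± 0.16 below WT, a 1.86-fold difference (log2 fold change -0.90, adjusted p = 0.0138, edgeR). The latter call held over 12 libraries (adjusted p = 0.0360, edgeR) and was lost without WT HFD replicate 1, WT HFD replicate 2 or HoipA-KO HFD replicate 2 (adjusted p = 0.0546, 0.0577 and 0.0604, edgeR). The diet call was lost without WT CD replicate 2 (0.65, adjusted p = 0.0833, edgeR) and without WT HFD replicate 2 (0.81, adjusted p = 0.0533, edgeR). HoipA-KO against WT on CD was -0.19 ± 0.18 (adjusted p = 0.419, edgeR), and 24 of 26 alternatives kept its sign and left it uncalled. The CD difference was -0.45 without WT CD replicate 2 and HoipA-KO HFD replicate 1, which held the most epididymal RNA. That fit left WT CD with replicate 1 alone. The near-identical copy Cd55b, which can share reads with Cd55, had 101 CPM in WT CD replicate 3 and at most 1.47 CPM elsewhere.

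Icam1 (ENSMUSG00000037405), the adhesion molecule that leukocyte integrins bind and a marker of committed preadipocytes, lies at chr9:21015985-21028817 on the plus strand. Its levels were 17.2, 14.5 and 8.86 CPM in WT CD, 58.6, 56.9 and 61.8 CPM in HoipA-KO CD, 30.0, 34.7 and 38.5 CPM in WT HFD and 55.3, 63.8 and 70.0 CPM in HoipA-KO HFD. The HoipA-KO groups overlapped each other and lay above WT HFD, which lay above WT CD. HoipA-KO against WT was 3.81-fold higher on CD (1.93 ± 0.17 on the log2 scale, adjusted p = 0.000452, edgeR). On HFD it was 1.86-fold higher (0.89 ± 0.14, adjusted p = 0.00999, edgeR), and this call was lost over 12 libraries (0.87, adjusted p = 0.0558, edgeR). HFD raised Icam1 in WT by 1.12 ± 0.16 (adjusted p = 0.00617, edgeR) and differed from CD in HoipA-KO by 0.08 ± 0.14. The genotype difference was smaller on HFD than on CD, with an interaction of -1.04 ± 0.21 (adjusted p = 0.0313, edgeR), which was lost over 12 libraries (-1.23, adjusted p = 0.0609, edgeR) and in 9 of 13 fits without a single library.

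Dlk1 (ENSMUSG00000040856), the preadipocyte protein PREF-1, which carries repeats like those of NOTCH ligands and holds back adipocyte formation, lies at chr12:109452823-109463336 on the plus strand. It was close to the limit of counting, with 4 to 55.0 counts a library. It had 0.609, 0.557 and 0.960 CPM in WT CD, 0.200, 0.0711 and 0.327 CPM in HoipA-KO CD, 0.398, 0.231 and 0.126 CPM in WT HFD and 0.464, 0.155 and 0.160 CPM in HoipA-KO HFD. All WT CD libraries lay above the libraries of the other groups, which overlapped. HoipA-KO against WT on CD was -1.52 ± 0.71 (adjusted p = 0.120, edgeR), and over 12 libraries it was -1.87 (adjusted p = 0.0518, edgeR). No difference of Dlk1 passed the threshold in any comparison, although that on CD was negative under every alternative (-2.16 to -1.12).

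Fap (ENSMUSG00000000392), fibroblast activation protein, a peptidase of the same family as Dpp4 and its neighbour on the chromosome, lies at chr2:62500943-62574075 on the minus strand. It had 5.82, 3.25 and 2.15 CPM in WT CD, 12.8, 14.9 and 11.9 CPM in HoipA-KO CD, 11.2, 18.1 and 17.8 CPM in WT HFD and 18.6, 20.0 and 18.1 CPM in HoipA-KO HFD. WT CD lay below every other library, while WT HFD overlapped HoipA-KO CD and HoipA-KO HFD. Fap was 2.99-fold higher in HoipA-KO than in WT on CD (log2 fold change 1.58 ± 0.29, adjusted p = 0.00293, edgeR) and 3.47-fold higher on HFD than on CD in WT (1.80 ± 0.29, adjusted p = 0.00695, edgeR). HoipA-KO against WT on HFD was 0.29 ± 0.24 (adjusted p = 0.440, edgeR).

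Hmga2 (ENSMUSG00000056758), at chr10:120361275-120476469 on the minus strand, showed the largest fitted change of the 10 genes. It had 1, 12 and 29 counts in the WT CD libraries, or 0.0244, 0.257 and 0.506 CPM, and the count of replicate 1 is below the floor of 3 counts. It had 16.0, 44.6 and 15.9 CPM in HoipA-KO CD, 2.09, 10.5 and 19.6 CPM in WT HFD and 13.5, 34.8 and 31.0 CPM in HoipA-KO HFD. WT CD was separate from all other groups, the WT HFD libraries spread widely, and on HFD the genotypes overlapped. HoipA-KO against WT on CD was 7.47 ± 1.30 on the log2 scale (adjusted p = 0.00233, edgeR) and ranged from 6.02 to 9.94 when single libraries were left out, the largest value being that without WT CD replicate 2, which rests on the single count of replicate 1. HFD against CD in WT was 6.18 ± 1.25 (adjusted p = 0.0137, edgeR), a call lost without WT CD replicate 2 (8.66, adjusted p = 0.0566, edgeR). On HFD the genotypes differed by 1.32 ± 0.77 (adjusted p = 0.265, edgeR), and HFD against CD in HoipA-KO was 0.03 ± 0.75. The interaction was -6.15 ± 1.43 (adjusted p = 0.0471, edgeR), and it was lost over 12 libraries (-5.19, adjusted p = 0.0699, edgeR) and in 11 of 13 fits without a single library.

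**Figure D2:**
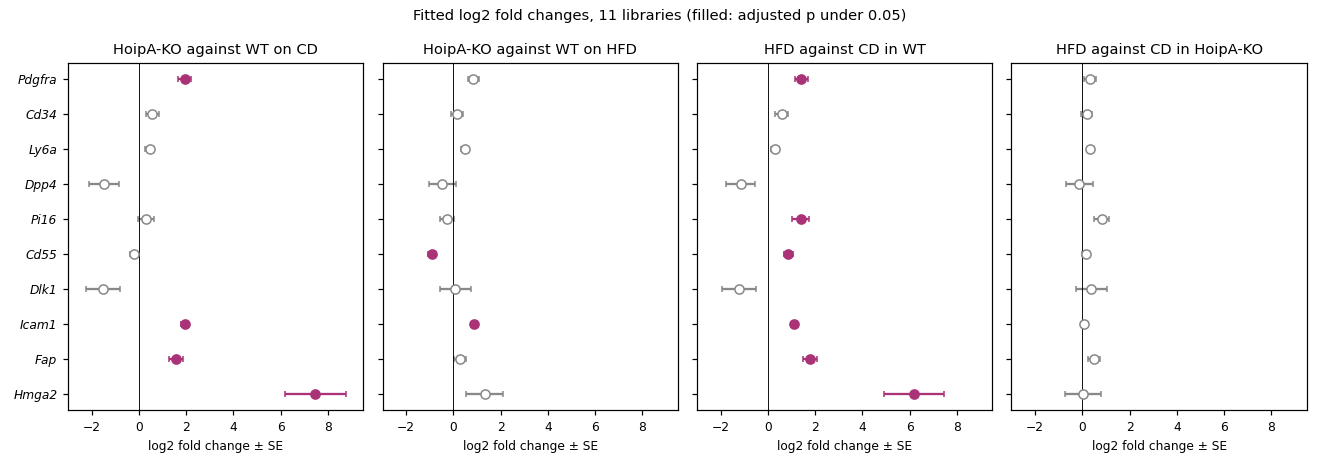
Log2 fold changes of the 10 genes in 4 comparisons, fitted over 11 libraries. Points are estimates, bars are standard errors, and filled points have an adjusted p under 0.05. Filled points number 4, 2, 6 and 0 from left to right, and the widest bars belong to Hmga2, Dlk1 and Dpp4.

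The 250 bases before the transcription start were read for Pdgfra, Icam1 and Hmga2, which were higher both in HoipA-KO on CD and in WT on HFD, from RefSeq's GRCm38.p6 promoter table, where 8 of the 10 genes were found and Ly6a and Fap were not. Each runs 5′ to 3′ on the gene's own strand, and capitals mark matches on either strand to the general NF-κB element, GGG and CC parted by any 5 bases, or to GGAAATTCC, the form known from Icam1. The windows are chr5:75152001-75152250, chr9:21015690-21015939 and chr10:120476470-120476719.
Pdgfra: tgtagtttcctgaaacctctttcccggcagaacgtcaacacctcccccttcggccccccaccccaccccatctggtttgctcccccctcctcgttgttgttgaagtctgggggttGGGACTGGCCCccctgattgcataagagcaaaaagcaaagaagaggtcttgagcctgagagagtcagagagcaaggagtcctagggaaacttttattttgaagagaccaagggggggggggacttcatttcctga
Icam1: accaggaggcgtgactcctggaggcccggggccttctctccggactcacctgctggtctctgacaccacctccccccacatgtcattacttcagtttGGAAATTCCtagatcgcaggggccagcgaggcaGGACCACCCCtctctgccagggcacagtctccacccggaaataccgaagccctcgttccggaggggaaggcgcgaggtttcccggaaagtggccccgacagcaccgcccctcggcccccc
Hmga2: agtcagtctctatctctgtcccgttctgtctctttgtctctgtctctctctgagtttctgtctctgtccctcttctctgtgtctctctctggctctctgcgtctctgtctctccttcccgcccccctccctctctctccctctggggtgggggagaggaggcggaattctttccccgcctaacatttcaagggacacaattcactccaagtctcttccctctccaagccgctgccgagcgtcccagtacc
GGAAATTCC occurred in Icam1 from base -153 to -145 before the start and in none of the 7 other promoters found, and 0.286% of the 32851 promoters of the table hold it. The general NF-κB element occurred in Icam1, Pdgfra, where 2 matches on opposite strands overlap, Cd34 and Cd55, but 45.8% of all promoters hold it. Neither was found in the Hmga2 window, which is rich in runs of c and t and holds the GC box GGGCGG on the reverse strand from base -133 to -128, as 32.7% of all promoters do on either strand. The AP-1 element TGANTCA, held by 6.75% of promoters, occurred in none of the 8. No binding was measured, and these matches describe the sequence alone.

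Other genes of the same cell states were counted from lists written from general knowledge. Of 14 further genes of interstitial progenitors, 6 were higher and 3 lower in HoipA-KO than in WT on CD, with a median log2 fold change of 0.00 beside -0.06 for all genes, and on HFD 0 were higher and 3 lower. Over 12 libraries 4 were higher and 3 lower on CD and 1 was lower on HFD. Clec3b, a plasminogen-binding lectin and the most abundant of them, was 1.13 higher on CD, Cd248, a stromal sialomucin, 2.43 and Mfap5, a microfibril protein, 1.83 on the log2 scale. Sema3c, a secreted guidance protein, was lower on both diets (-1.16 and -1.49), as was Limch1 (-1.44 and -1.38), but over 12 libraries Sema3c was called on neither diet and Limch1 on CD alone.

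Of 13 genes of committed preadipocytes, 3 were higher and 2 lower in HoipA-KO on CD, and 0 were higher and 2 lower on HFD, with medians of 0.33 and -0.06. Over 12 libraries 4 were higher and 2 lower on CD and none was called on HFD. The most abundant, Col4a1 of the basement membrane, differed by 0.64 on CD, which did not pass the test. Cxcl14, a chemokine, was higher on CD (2.84) and Mme, the peptidase neprilysin, was lower on both diets (-3.24 and -2.19), with 326 CPM in WT CD replicate 2, the library with epididymal RNA, beside 69.6 and 42.0 CPM in the other WT CD libraries. Zfp423, a transcription factor of preadipocytes, was lower on HFD (-1.42), and over 12 libraries neither it nor Mme was called on HFD (adjusted p = 0.0705 and 0.0786, edgeR). Of 8 genes of adipogenesis-regulatory cells, 2 were higher and 1 lower on CD, and 1 was higher on HFD, with medians of 0.33 and 0.34. Their most abundant gene Mgp, a matrix inhibitor of calcification, was higher on CD (2.54), and Abcg1, a sterol exporter that macrophages also express, was higher on both diets (2.56 and 1.06). Over 12 libraries 2 were higher on CD and none was called on HFD, Abcg1 included (1.04, adjusted p = 0.115, edgeR).

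Of 14 genes of the fibroblast lineage, 11 were higher and 0 lower in HoipA-KO on CD, with a median of 1.82, while on HFD 2 were higher and 0 lower, with a median of 0.40. HFD raised 10 of the 14 in WT. Over 12 libraries 11 were higher on CD, 1 on HFD and 11 by diet in WT. Lum, a keratan sulfate proteoglycan, and Col1a1, of type I collagen, were 3.48 and 2.87 higher on CD, and Pcolce, which enhances procollagen processing, and Col1a2 were 1.33 and 0.93 higher on HFD, of which Col1a2 was not called over 12 libraries (adjusted p = 0.0821, edgeR). Gsn, the most abundant of the list, differed by -0.42 and -0.30 and was not called. More fibroblast genes were thus called on CD than on HFD, as held for all genes tested, of which 37.7% and 11.8% were called. Whether the fibroblast genes differed from the progenitor lists was not tested.

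**Figure D3:**
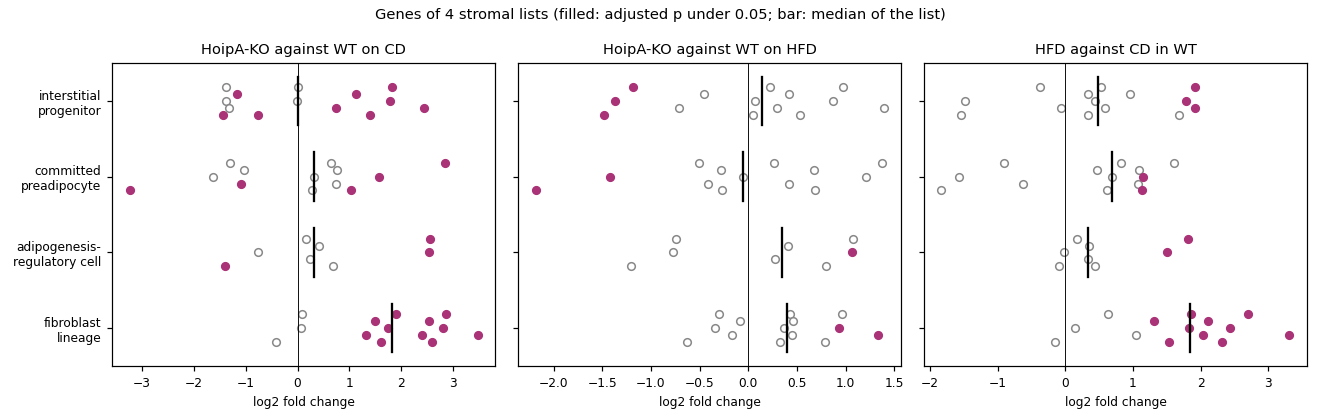
Log2 fold changes of single genes in 4 lists of stromal genes, fitted over 11 libraries, with the horizontal range set separately for each comparison. Filled points have an adjusted p under 0.05 and the black bar is the median of the list. For HoipA-KO against WT on CD the fibroblast lineage has its median at 1.82 with 11 of 14 points filled, whereas the interstitial progenitor list has filled points on both sides of 0.

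Genes that act with single members were counted in the same way. Of 5 genes, the PDGF ligands and the other PDGF receptor, 2 were higher in HoipA-KO on CD and 0 were called on HFD, with medians of 0.52 and 0.12. Pdgfrb, the receptor of mural cells and fibroblasts, was the most abundant (1.49 on CD) and Pdgfa was the other (0.52). Of 10 partners of ICAM1 and endothelial adhesion genes, 6 were higher on CD and 0 on HFD, with medians of 1.53 and 0.89, led by Itgax (6.44) and Itgb2 (6.01), integrin chains of leukocytes, of which Itgb2 was the most abundant and Itgax is also on the macrophage list, and over 12 libraries 5 were higher on CD. Of 12 NOTCH receptors, ligands and targets, 1 was higher and 4 were lower on CD and 1 was higher and 3 were lower on HFD, with medians of -0.67 and -0.50. Notch2, the most abundant, was higher on CD (0.98), while Dll4, an endothelial ligand, was lower on both diets (-2.71 and -2.13), as was the endothelial receptor Notch4 on HFD (-1.32) and the ligand Jag2 on CD (-1.43). Over 12 libraries 1 NOTCH gene was higher and 3 were lower on CD, and none was called on HFD, Dll4 and Notch4 included (adjusted p = 0.0783 and 0.0844, edgeR).

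Of 8 genes of the DPP4 family or of proteins that act with DPP4, 4 were higher and 2 lower on CD and 1 was higher and 1 lower on HFD. Cav1, the caveolae protein and most abundant of them, was lower on both diets (-1.65 and -1.83), and Ada, adenosine deaminase, was higher on both (2.60 and 1.18). Over 12 libraries 5 were higher and 1 lower on CD, and none was called on HFD, Cav1 and Ada included (adjusted p = 0.0558 and 0.0597, edgeR). The DPP4 substrate neuropeptide Y, Npy, differed by -5.12 on CD, with 518 CPM in WT CD replicate 2 beside 0.0244 and 0.0698 CPM in the other WT CD libraries, and it was not called over 12 libraries (adjusted p = 0.137, edgeR). Of 6 tested complement regulators other than Cd55, 2 were higher and 2 lower on CD and 0 were higher and 2 lower on HFD, and over 12 libraries 3 were lower on CD. Serping1, the C1 inhibitor and most abundant, was higher on CD (1.84), whereas Cd59b and Cd59a, which block the membrane attack complex, were lower on HFD (-1.70 and -1.55), and Cd59b was lower on CD as well (-2.26).

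Of the imprinted domain that holds Dlk1, 5 of 6 genes were tested. Its non-coding RNA Meg3, the most abundant, was raised by HFD in WT (2.12) while Dlk1 was not, and Begain was higher in HoipA-KO on CD (2.25), a call lost over 12 libraries (1.05, adjusted p = 0.183, edgeR). Of 4 tested genes of the HMGA2 and let-7 axis, 2 were higher on CD and 0 were called on HFD. The 2 higher genes were Hmga1, the second HMGA gene (3.97), and Igf2bp2, an RNA-binding protein encoded by an HMGA2 target (2.92), and over 12 libraries 1 gene was also lower on CD. Of 7 tested paralogs of the 10 genes, Hmga1 and Pdgfrb were higher on CD and Ly6e, the most abundant, was lower (-1.75), with 1343 CPM in WT CD replicate 2 beside 308 and 190.3 CPM in the other WT CD libraries, and Ly6e was not called over 12 libraries (-1.37, adjusted p = 0.1002, edgeR).

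Markers of other cells moved with the groups. All 8 macrophage markers were higher in HoipA-KO on CD and in WT on HFD, 3 of 8 were higher in HoipA-KO on HFD but 0 of 8 over 12 libraries, and their summed level was 357 to 554 CPM in WT CD, 10982 to 14662 CPM in HoipA-KO CD, 1933 to 6026 CPM in WT HFD and 7393 to 12975 CPM in HoipA-KO HFD. None of the defining markers was at 0 in any group, and the medians of the list were 5.23 on CD and 1.33 on HFD. Lyz2, lysozyme of macrophages, was the most abundant, and Trem2, a lipid-sensing receptor, was 6.20 higher on CD and 1.69 on HFD, the latter not called over 12 libraries (adjusted p = 0.0884, edgeR). On average WT CD was lowest and WT HFD next by this sum, as by Hmga2 and Icam1, and the HoipA-KO groups overlapped each other for all of these. Of 8 adipocyte markers, 7 were lower in HoipA-KO on each diet (6 on CD and 5 on HFD over 12 libraries), Adipoq by the most (-2.64 and -2.83), with sums of 14008 to 14183 CPM in HoipA-KO CD, 29743 to 36831 CPM in WT HFD and 11961 to 14270.1 CPM in HoipA-KO HFD. The part of macrophage or adipocyte RNA in the levels of the 10 genes was not tested.

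Of the other marker lists, mast cells had 5 of 6 higher on CD and 2 of 6 on HFD, and endothelial cells, which share Cd34, Ly6a and Icam1, had 3 of 8 lower on CD and 2 of 8 on HFD. T cell markers had 1 of 8 higher on each diet, and dendritic cell markers 2 of 6 on CD and 0 on HFD. Mesothelial markers had 0 of 8 called in either comparison, and mural cell markers 2 of 8 lower on CD and 1 of 8 on HFD. The epididymal list had 1 of 10 lower on CD and 0 on HFD, and over 12 libraries 2 were lower on CD. Over 12 libraries the mast, endothelial, mural and T cell lists had none called on HFD, and on CD 1 endothelial and 1 mural marker were lower and 1 dendritic cell marker was higher. Mural markers summed to 3016 CPM in HoipA-KO HFD replicate 1 beside 257 to 876 CPM in the 11 other libraries.

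**Figure D4:**
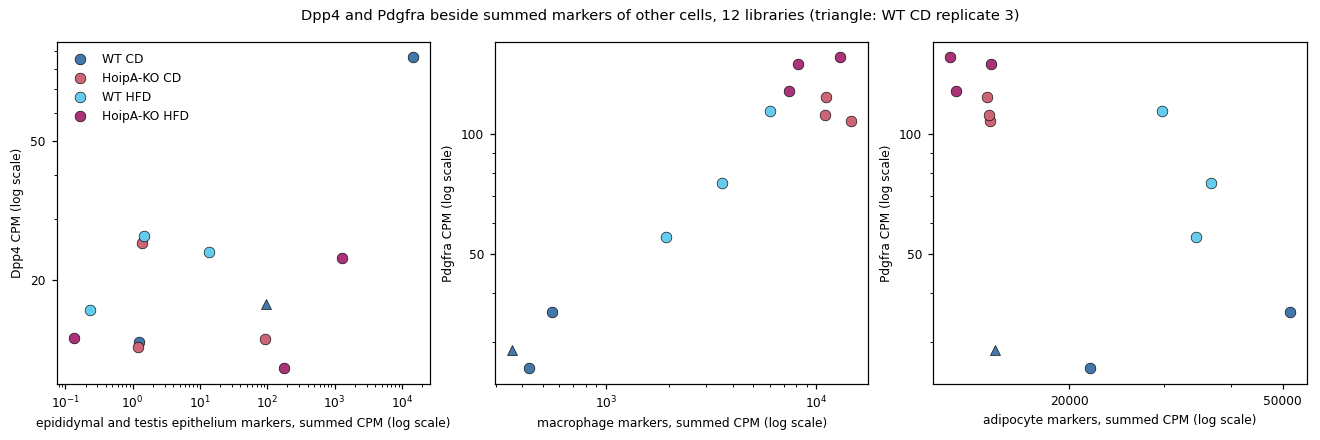
Dpp4 against the summed epididymal markers, and Pdgfra against the summed macrophage and adipocyte markers, one point per library on log axes. WT CD replicate 2 stands alone at 14804 CPM of epididymal markers and 86.3 CPM of Dpp4. Pdgfra is lowest in the 3 WT CD libraries, which have 357 to 554 CPM of macrophage markers, and the adipocyte sums of WT CD reach from 14516 to 51549.7 CPM.

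Across the 12 libraries the 10 genes did not form a single pattern. As Pearson's r of log2(CPM + 1) over libraries that share groups and tissue composition, Pdgfra followed Icam1 (0.96), Hmga2 (0.95) and Fap (0.91). Ly6a followed Icam1 (0.87), Cd34 (0.85) and Fap (0.85), and its r with Cd34 was 0.72 without WT CD replicate 3. Dlk1, close to the limit of counting, ran opposite to Pdgfra (-0.81), Icam1 (-0.84), Fap (-0.85) and Hmga2 (-0.87). Cd55 had r of -0.17 with Pdgfra and -0.24 with Icam1, and Dpp4 had -0.51 with Pdgfra, or -0.63 without WT CD replicate 3. Both r of Dpp4 include WT CD replicate 2, with 86.3 CPM of Dpp4 beside 11.3 to 26.7 CPM in the other libraries. No r was computed without that library. The values of r describe 12 pools in 4 groups and are given without a test.

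Among 10224 tested genes with a mean of at least 10 CPM, those closest to Pdgfra were Mmp2, a matrix metalloproteinase (r = 0.99), and the leukocyte genes Ms4a6b and Il10ra (both 0.99). Closest to Hmga2 were Tmpo, a nuclear lamina protein, Mcm6, a subunit of the replicative helicase, and Serpinb6b (0.99 each), and closest to Icam1 were Necap2, Pla2g15, a lysosomal phospholipase, and Rhog (0.99 each). Fap lay nearest the matrix genes Fstl1, Fbln2 and Col6a1 (0.98 each). Ly6a lay nearest Bst2 (0.97), an interferon-inducible surface protein, then Ogfr and Cxcl12 (both 0.97). Cd34 lay nearest Ecm2 (0.96), Zfp521 (0.95) and 2310022B05Rik (0.95), and Cd55 nearest Nomo1 (0.95), Pde7a (0.94) and Paqr9 (0.94). Dpp4 was nearest Igf1r (0.92), Rprd1a (0.90) and Ptprf (0.89), Pi16 nearest Tmem132a (0.90), Tph2 (0.89) and Nectin1 (0.89), and Dlk1 nearest Zfp523 (0.96), Gprasp1 (0.94) and Pabpn1 (0.94). The values of r for Dpp4 include WT CD replicate 2, whose 86.3 CPM lay far above all other libraries, and were not computed without it.

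When the 10 genes were compared library by library, every WT HFD library lay above every WT CD library of the fit for 8 of them and below for Dlk1, beside 24.1% and 18.3% of all genes. On CD, the HoipA-KO libraries lay above those of WT for Pdgfra, Ly6a, Fap, Hmga2 and Icam1 and below for Dlk1, beside 27.2% and 26.8% of all genes. On HFD they lay above for Pdgfra, Ly6a and Icam1 and below for Cd55, beside 20.6% and 23.7%. In HoipA-KO, every HFD library lay above every CD library for Pdgfra, Pi16, Ly6a, Cd55 and Fap, 5 of 10 beside 3.4% of all genes, and below for 0 beside 2.5%, although none of these differences passed the adjusted test. The largest of them was 0.81 for Pi16 on the log2 scale and the smallest was 0.16 for Cd55.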

How the data were processed

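RNA of GWAT was sequenced from 12 pools of 3 mice. The authors trimmed reads with Trim Galore 0.6.7, aligned them with STAR 2.7.10a and deposited estimated counts per gene from Salmon 1.5.2, without normalization, for all 55281 genes and again for protein-coding genes. They also deposited DESeq2 tables of their own comparisons (log2 fold changes, p-values and CPM), which were not used. The submitters' notes name GRCm38, the methods name a human assembly, and 3333 gene identifiers are not in GENCODE M21, so the build of the counts is not settled. Positions are those of GENCODE M21 on GRCm38 and promoters those of RefSeq on GRCm38.p6. Whether counting used strand is not given in the sources used here, and 7 of the 10 genes have exons that overlap a gene annotated on the other strand.

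Estimated counts were rounded, filtered with filterByExpr, scaled by TMM and fitted with edgeR 4.0.16 (R 4.3.3) as 4 group means without a block, using 11 libraries as the study's comparisons do. Each contrast was given p-values by edgeR's quasi-likelihood F-test, with Benjamini-Hochberg adjustment over 18427 genes and a threshold of 0.05, at the default prior count. Standard errors are the log2 fold change divided by the square root of F. Printed levels are CPM scaled by TMM over 12 libraries. The interaction is the genotype difference on HFD minus that on CD. Replicates are separate pools.

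The 10 genes and all lists were chosen with earlier results of these data known. Each list is given by its counts, with its most abundant gene and up to 2 called genes with the largest change on each diet named. Genes with a like pattern are the 3 with the highest Pearson r of log2(CPM + 1). The other tested alternatives were DESeq2 1.42.0, other scaling, filters, gene sets, thresholds, prior counts, a replicate block and leaving out each library. The fit without both libraries that hold epididymal RNA and the block over 12 libraries were added after seeing the data. Genes named for epididymal RNA were chosen after their values were seen. Counting limits cover counting error only.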

Additional observations from a re-analysis of the deposited data

Results flagged for a closer look

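In the fit of 11 libraries, 2 of the 10 genes passed a test of whether the genotype difference itself differed between the diets, the interaction of genotype and diet (edgeR's quasi-likelihood test), beside 3.91% of all genes. For Hmga2 the interaction was -6.15 ± 1.43 on the log2 scale (adjusted p = 0.0471), with HoipA-KO minus WT at 7.47 on CD and 1.32 on HFD. For Icam1 it was -1.04 ± 0.21 (adjusted p = 0.0313), with 1.93 on CD and 0.89 on HFD. All 3 HoipA-KO libraries lay above all WT libraries on both diets for Icam1, and on CD alone for Hmga2. Over the alternatives that left out 1 library, the adjusted p ran from 0.0131 to 0.117 for Hmga2, which lost the call in 11 of 13 such fits, and from 0.0138 to 0.105 for Icam1, which lost it in 9 of 13. Both calls were lost over 12 libraries (adjusted p = 0.0699 and 0.0609, edgeR), and Icam1 also with the replicate block (adjusted p = 0.0518, edgeR). Of 8 macrophage markers, 7 had an interaction called in the same direction, and their part in these values was not tested.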

How the results depend on the processing

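The 4 calls of HoipA-KO against WT on CD held under each alternative that could test them. Hmga2 was not tested where every library needed at least 10 counts. Leaving out single libraries gave 4 to 6 calls on CD, 1 to 3 of HoipA-KO against WT on HFD, 2 to 7 of HFD against CD in WT, 0 in HoipA-KO and 0 to 4 for the interaction. Against 2 calls on HFD, there was 1 over 12 libraries, 1 over 12 with the block, 1 at an adjusted p of 0.01, 4 with DESeq2 and 4 without both libraries with epididymal RNA. Against 6 for diet in WT, there were 0 with 2 groups alone, 2 at 0.01 and 2 without both libraries with epididymal RNA. Against 2 interactions, there were 0 over 12 libraries, 0 at 0.01, 0 without both libraries with epididymal RNA, 1 with no filter, 1 with at least 10 counts, 1 over 12 libraries with the block and 4 with DESeq2 (Pdgfra, Fap, Hmga2 and Icam1).

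Over the 4 groups replicate numbers did not pair the samples, since 6 of 15 same-numbered pairs had r over 0.1 (range -0.37 to 0.50). Between HoipA-KO CD and HoipA-KO HFD all 3 same-numbered pairs had r over 0.1 (0.14, 0.50 and 0.28), and with the replicate block 0 of the 10 genes were called there, as without it. The block left 1 interaction called (Hmga2) and 4 calls on CD, and Pi16 lost its diet call in WT (1.37, adjusted p = 0.0663, edgeR).

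Differences that changed sign were small or uncalled in the fit reported. The Ly6a interaction was -0.26 over 12 libraries, -0.27 with the block there, and -0.51 to 0.21 without single libraries (-0.41 without WT CD replicate 2 of 12, and -0.049 as the lowest of 11). Dlk1 on HFD was -0.0038 with the block, -0.034 with it over 12 libraries, -0.59 without both libraries with epididymal RNA and -0.60 to 0.55 without single libraries, and its diet difference in HoipA-KO was -0.31 without both and -0.31 to 0.92. Hmga2 by diet in HoipA-KO was -0.032 with the block, -0.066 with it over 12 libraries and -0.23 to 0.74. Without both libraries with epididymal RNA, Dpp4 was 0.38 on CD, 0.72 by diet in WT and -1.19 for the interaction. Without single libraries Dpp4 ran from -2.29 to 0.42 on CD, -1.93 to 0.76 by diet in WT, -0.46 to 0.24 in HoipA-KO and -0.89 to 1.81 for the interaction, and over 12 libraries without WT CD replicate 2 it was 0.15, 0.51 and -0.63 for CD, diet in WT and interaction. Cd55 on CD ran from -0.46 to 0.055 (-0.40 without WT CD replicate 2, and -0.45 without both libraries with epididymal RNA), Cd34 by diet in HoipA-KO from -0.015 to 0.34, and Pi16 on HFD from -0.50 to 0.15. The cause of these changes was not tested.

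Over all settings, 1150 values of single genes kept direction and side of the threshold, 63 lost and 30 gained a call, and 36 changed sign. With 2 or 3 pools a group, and 1 to 55.0 counts a library for Dlk1 and for Hmga2 in WT CD, small differences could not be detected.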
